A study of Mus musculus with 89 samples.

Results

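Transcripts of 10 nuclear-encoded subunits of the mitochondrial ATP synthase were followed on 89 arrays, each made from the forebrain of 1 mouse embryo at day 18.5 of development (E18.5). The genes were taken by symbol or alias, and each of the 10 was matched by 1 probe set with a single gene symbol, out of 22206 probe sets on the array. Atp5o and Atp5j lie on the distal part of mouse chromosome 16 (Mmu16) that is present in 3 copies in both trisomic strains. The other 8 genes, Atp5a1, Atp5b, Atp5c1, Atp5d, Atp5h, Atp5k, Atp5l and Atp5g1, lie elsewhere in the genome and have 2 copies in every group.

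Each embryo gave 1 Clariom S array, and the embryos came from 6 litters per colony. The Ts65Dn colony held 18 euploid embryos (EupTs65Dn) and 23 embryos with Ts65Dn, a small extra chromosome that joins distal Mmu16 to a proximal part of Mmu17. The Ts66Yah colony held 24 euploid embryos (EupTs66Yah) and 24 embryos with Ts66Yah, which keeps the extra Mmu16 part and lacks the extra Mmu17 part. Both colonies were kept on a mixed B6 and C3H background without any treatment, Ts65Dn was passed on through mothers alone, and Ts66Yah was bred up by in vitro fertilization from a few males. The euploid embryos were littermates of the trisomic ones. The labels give separate embryos, and the spread is that between animals. Precision is limited by how many embryos there were.

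ATP synthase sits in the inner mitochondrial membrane and makes ATP as protons flow back into the matrix. Protons turn a ring of c subunits joined to a central stalk, and the turning stalk drives the catalytic sites of the head, while a peripheral stalk holds the head still. The head, the stalks and the membrane part are built from subunits in fixed proportions, nearly all of them encoded in the nucleus. In the forebrain before birth, the enzyme serves growing neurons and dividing progenitor cells.

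The 2 triplicated genes encode parts of the peripheral stalk. Atp5o (gene ID 28080) encodes the oligomycin sensitivity-conferring protein, which joins the stalk to the top of the head. Atp5j (gene ID 11957) encodes coupling factor 6, a small stalk subunit next to it. The stretch upstream of each start site is shown because both genes were higher in trisomic embryos, as was Gabpa, which starts on the opposite strand 148 bases from Atp5j. Gabpa encodes the DNA-binding subunit of GABP, an activator of many nuclear genes for mitochondrial proteins. The sequences are from RefSeq (GRCm38.p6) and read 5′ to 3′ on the minus strand. Capitals mark CCGGAAG, a core of GABP sites, and CGCATGCG, the centre of the site of NRF1, another activator of such genes, on either strand.
Atp5j to Gabpa, chr16:84834977-84835123: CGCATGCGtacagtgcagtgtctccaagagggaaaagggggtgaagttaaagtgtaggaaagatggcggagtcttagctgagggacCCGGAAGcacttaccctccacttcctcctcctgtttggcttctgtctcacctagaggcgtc
Atp5o upstream, chr16:91931631-91931880: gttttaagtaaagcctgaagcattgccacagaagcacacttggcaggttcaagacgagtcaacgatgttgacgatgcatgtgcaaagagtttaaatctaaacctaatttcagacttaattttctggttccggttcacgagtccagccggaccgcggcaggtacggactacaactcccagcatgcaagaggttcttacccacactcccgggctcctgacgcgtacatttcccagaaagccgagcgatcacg

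The stretch between Atp5j and Gabpa holds both sets of letters, and the 250 bases before Atp5o hold neither. Windows of 300 bases around the start (250 before, 50 after) were matched for 9 of the 10 subunits. CCGGAAG was found in a window of 4 of these 9 (Atp5j, Atp5h, Atp5k and Atp5l) and CGCATGCG in 3 (Atp5j, Atp5k and Atp5l). Over all 32851 windows the shares were 8.86% and 1.87%. Counted by gene, as for the subunits, they were 13.2% and 2.87% of the 15691 genes on the array with a window. A second window of Atp5j, around another start site, held neither, and a match of letters does not show that a factor binds there.

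Some arrays stood apart, and they touch the results below. The 2 colonies lay at different levels (array means from 5.26 to 5.33 log2 units in the Ts65Dn colony and from 6.05 to 6.41 in the Ts66Yah colony), so each trisomic group was set against the euploid group of its own colony. One EupTs66Yah array (replicate 16) had a standard deviation of 1.13 over its probe sets, against 2.23 to 2.39 for the other 23 of its group. The array mean of 6.05 was its own, and the next lowest of the colony was 6.35. The triplicated Mmu16 genes, with the subunits left out, were at the other genotype's level on 4 arrays: Ts65Dn replicate 18, Ts66Yah replicates 13 and 24, and EupTs66Yah replicate 24. Y-linked genes went against the sex label on 17 arrays. No label was changed. Of 9 forebrain markers measured, 8 were above the median probe set in all 4 groups, against 0 of 6 midbrain and hindbrain markers. Of those 6, 1 was above it in both groups of the Ts65Dn colony and 4 in both groups of the Ts66Yah colony.

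Both triplicated peripheral stalk genes rose in Ts65Dn. Atp5o ranged from 9.79 to 10.22 log2 units in the 18 EupTs65Dn embryos (median 10.04) and from 10.20 to 10.69 in the 23 Ts65Dn embryos (median 10.53). In 22 of 23 Ts65Dn embryos it was above every euploid embryo, and the exception was replicate 18, one of the arrays at the other genotype's level. The mean of Atp5o was 10.52 ± 0.12 (SD) against 10.04 ± 0.11, a log2 difference of 0.48 (SE 0.042), or 1.40-fold (limma, adjusted p = 1.24e-10). By p-value this was rank 2 of all 22206 probe sets and rank 1 of the 121 measured Mmu16 genes, while by fold it was rank 23 of those 121.

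Atp5j ranged from 8.55 to 9.26 in EupTs65Dn (median 8.94) and from 9.08 to 9.80 in Ts65Dn (median 9.53). In 21 of 23 Ts65Dn embryos it was above every euploid embryo, with replicates 8 and 18 inside the euploid range. Its mean was 9.52 ± 0.18 against 8.94 ± 0.19 (SD), a log2 difference of 0.58 (SE 0.060), or 1.49-fold (limma, adjusted p = 7.62e-09). Thus 2 of the 10 subunits were called at an adjusted p under 10%, both higher, against 0.491% of all probe sets called in either direction and 0.459% called higher. Without Ts65Dn replicate 18 (0.54% of probe sets called) the folds were 1.41 for Atp5o and 1.51 for Atp5j, and Atp5o no longer overlapped between the groups. That array was picked by its level of the other triplicated genes, so a wider gap without it is partly built in. Gabpa, another triplicated gene, no longer overlapped without that array either. How many of all probe sets had no overlap is not given, so the lack of overlap does not set Atp5o apart.

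**Figure D1:**
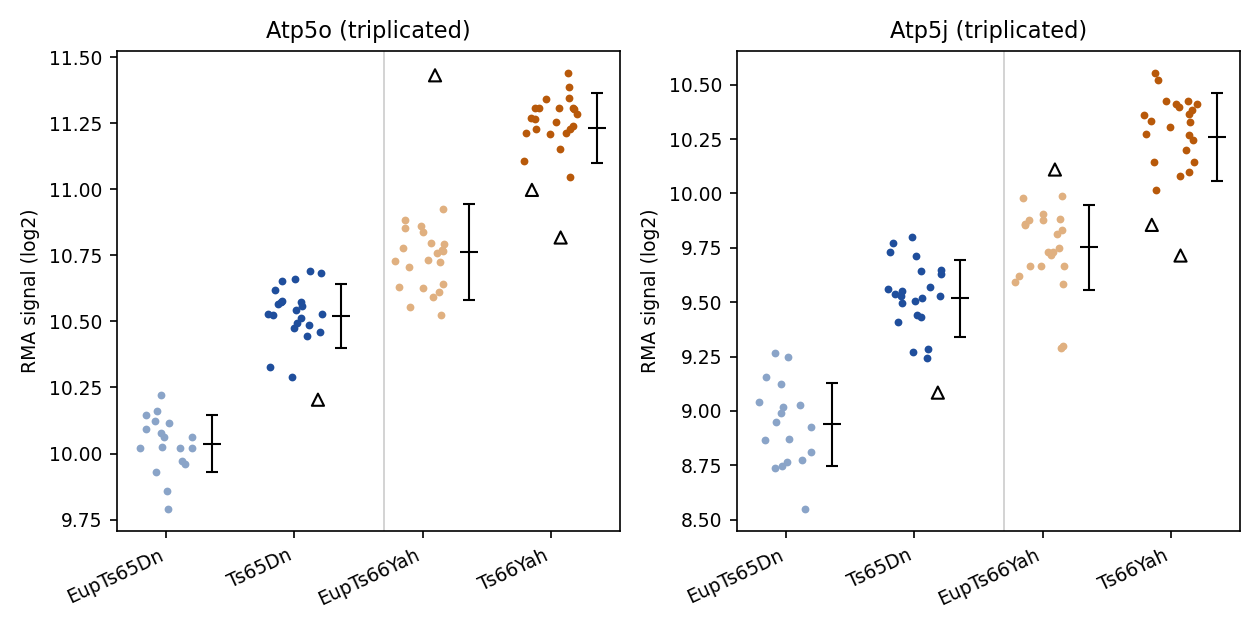
RMA signal (log2, vertical axis) of Atp5o and Atp5j in each embryo of the 4 groups, with the low-spread EupTs66Yah array left out. Dots are embryos, open triangles are the 4 arrays at the other genotype's level, and bars give the mean ± SD. Trisomic embryos lie above their euploid group, by 0.48 and 0.58 in Ts65Dn and by 0.47 and 0.51 in Ts66Yah, with the triangles between or across the groups.

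In Ts66Yah the same 2 genes were higher in nearly every embryo, but whether they were called depended on 1 euploid array. On the low-spread array Atp5o read 5.42 and Atp5j 5.80, each the lowest value of its gene on any array of the colony. With it, the 24 Ts66Yah embryos had a mean Atp5o of 11.23 ± 0.13 (SD) and the 24 euploid ones 10.54 ± 1.10, and the log2 difference of 0.69 (SE 0.22) was not called (limma, adjusted p = 0.267). Atp5j was 10.26 ± 0.20 against 9.59 ± 0.83, a difference of 0.67 (SE 0.17) that was not called (adjusted p = 0.117). With all arrays 0 of 10 subunits were called, against 0.171% of all probe sets. At an unadjusted p under 0.05 there were 3, Atp5o, Atp5j and Atp5d, beside 2271 of all 22206 probe sets. The methods' t-test also called 0 after adjustment.

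Without that array, Atp5o ranged from 10.53 to 11.43 in EupTs66Yah (median 10.76) and from 10.82 to 11.44 in Ts66Yah (median 11.26), over 23 and 24 embryos. Its mean rose from 10.76 ± 0.18 to 11.23 ± 0.13 (SD), a log2 difference of 0.47 (SE 0.049), or 1.39-fold (limma, adjusted p = 9.71e-09). All 24 Ts66Yah embryos were above the euploid median, but only 1 of 24 was above every euploid embryo. The groups overlapped through the 3 arrays at the other genotype's level. On those, EupTs66Yah replicate 24 read 11.43, and Ts66Yah replicates 13 and 24 read 10.82 and 10.998.

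Atp5j ranged from 9.29 to 10.11 in EupTs66Yah (median 9.75) without the low-spread array and from 9.71 to 10.56 in Ts66Yah (median 10.32). Its mean rose from 9.75 ± 0.20 to 10.26 ± 0.20 (SD), a log2 difference of 0.51 (SE 0.060), or 1.42-fold (limma, adjusted p = 1.72e-07). In 19 of 24 Ts66Yah embryos it was above every euploid embryo. In this setting 2 of 10 subunits were called, both higher, against 0.932% of all probe sets called in either direction and 0.757% called higher. With the 3 arrays at the other genotype's level also left out (1.47% of probe sets called), neither gene overlapped between 22 Ts66Yah and 22 EupTs66Yah embryos, and the folds were 1.44 for Atp5o and 1.48 for Atp5j. These arrays were picked by the level of other genes on the same Mmu16 part. Leaving them out therefore tends by itself to widen the gap for genes of that part. The share of all probe sets without overlap is not given here.

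The size of the change was set against the 1.5-fold ratio of 3 copies to 2, which is 0.585 on the log2 scale. The 95% interval of Atp5o was 0.40 to 0.57 in Ts65Dn and 0.37 to 0.57 in Ts66Yah without the low-spread array, and both ended below that value. The interval of Atp5j held it in both strains (0.46 to 0.70 and 0.39 to 0.63). Leaving out the arrays at the other genotype's level as well moved the interval of Atp5o to 0.42 to 0.58 in Ts65Dn and to 0.46 to 0.60 in Ts66Yah, so that the second then held 0.585. As those arrays were picked on genes of the same Mmu16 part, some of this shift follows from the choice. Over all 121 measured triplicated Mmu16 genes the median fold was 1.23 in Ts65Dn and 1.25 in Ts66Yah without the low-spread array, and over the 60 of them at or above the median signal it was 1.35 and 1.33.

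The difference was present within litters. Atp5o was higher in the trisomic than in the euploid littermates in 6 of 6 litters of the Ts65Dn colony, by 0.27 (TS42) to 0.63 (TS137), and in 6 of 6 of the Ts66Yah colony without the low-spread array, by 0.34 (WT19) to 0.67 (WT15). Atp5j was higher in all 12 litters too, by 0.41 (TS18) to 0.77 (TS113) and by 0.35 (WT13) to 0.61 (WT15). The litters with overlapping littermates were WT19 for Atp5o, and TS18, WT13 and WT19 for Atp5j, each of which holds an array at the other genotype's level. With the litter as a replicate block both genes were called in Ts65Dn, and in Ts66Yah without the low-spread array.

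**Figure D2:**
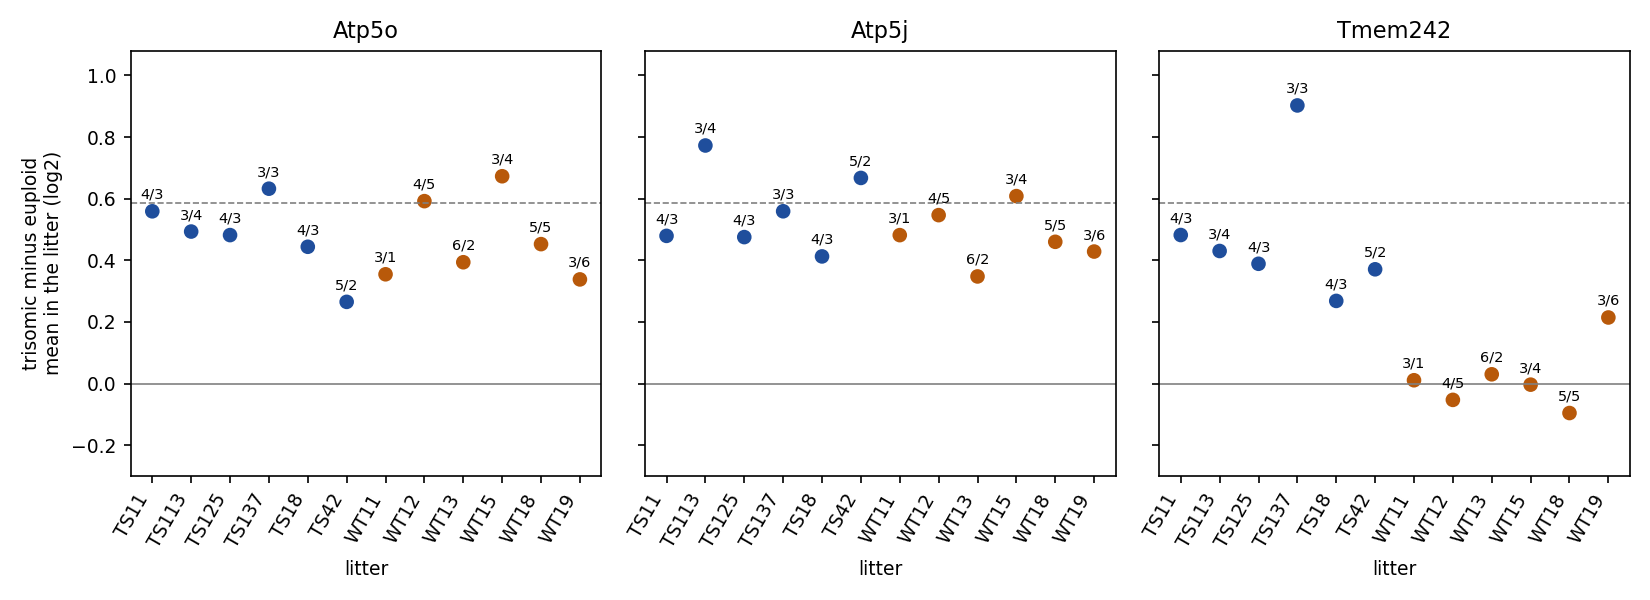
Mean of the trisomic minus mean of the euploid littermates (log2, vertical axis) for Atp5o, Atp5j and Tmem242 in each of the 12 litters, with the low-spread array left out. Litters of the Ts65Dn colony (TS) are blue, those of the Ts66Yah colony (WT) orange, the figures at each point are numbers of trisomic and euploid embryos, and the dashed line is the ratio of 3 copies to 2. Atp5o and Atp5j lie above 0 in all 12 litters, while Tmem242 lies above 0 in 6 of 6 TS litters and in 3 of 6 WT litters.

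The remaining peripheral stalk gene among the 10, Atp5h, encodes subunit d of the stalk, has 2 copies in every group and was not called. Atp5h ranged from 10.57 to 10.97 in EupTs65Dn (median 10.77) and from 10.69 to 10.99 in Ts65Dn (median 10.81). The groups overlapped, with 3 of 23 Ts65Dn embryos above the highest euploid embryo, and the log2 difference was 0.05 (SE 0.038, limma, adjusted p = 0.934). In the Ts66Yah colony it ranged from 11.17 to 11.63 in EupTs66Yah (median 11.51) and from 11.27 to 11.84 in Ts66Yah (median 11.51). Here and below, EupTs66Yah is given without the low-spread array. Of the Ts66Yah embryos 8 of 24 were above the highest euploid embryo and 12 below the euploid median, and the difference was 0.05 (SE 0.043, adjusted p = 0.668). The upper 95% bounds were 0.13 and 0.14, below the 0.585 of 3 copies to 2. Atp5f1, which encodes the stalk's subunit b and is not one of the 10 genes, differed by 0.03 (SE 0.047) and 0.02 (SE 0.045) and was not called either.

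The head and central stalk were measured through Atp5a1 and Atp5b, whose products alternate around the head, and Atp5c1 and Atp5d, whose products belong to the turning stalk. In Ts65Dn none of these 4 was called, and the log2 differences were 0.04 for Atp5a1, 0.03 for Atp5b, -0.04 for Atp5c1 and 0.09 for Atp5d. Atp5a1 ranged from 10.71 to 11.15 in EupTs65Dn (median 10.98) and from 10.83 to 11.12 in Ts65Dn (median 10.998). Its values in the Ts66Yah colony ran from 11.21 to 11.54 in EupTs66Yah (median 11.40) and from 11.21 to 11.60 in Ts66Yah (median 11.44). Of the Ts66Yah embryos 7 of 24 were above the highest euploid embryo for Atp5a1, and 0 of 23 Ts65Dn embryos were. Atp5b encodes the subunit that carries the catalytic sites. Atp5b ranged from 10.52 to 10.96 in EupTs65Dn (median 10.75) and from 10.61 to 10.92 in Ts65Dn (median 10.80). The Ts66Yah colony gave values from 11.38 to 11.76 in EupTs66Yah (median 11.58) and from 11.40 to 11.84 in Ts66Yah (median 11.59). Of the trisomic embryos 0 of 23 and 4 of 24 were above the highest euploid embryo, and the rest overlapped with the euploid group. In Ts66Yah the log2 differences were 0.04 for both genes, with adjusted p of 0.618 and 0.749 (limma).

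Atp5c1 encodes the γ subunit, the shaft of the central stalk. Atp5c1 ranged from 9.58 to 9.92 in EupTs65Dn (median 9.80) and from 9.39 to 10.10 in Ts65Dn (median 9.73). The SD was 0.17 in Ts65Dn and 0.088 in EupTs65Dn, and 15 of 23 Ts65Dn embryos were below the euploid median. In the Ts66Yah colony it ranged from 10.59 to 11.02 in EupTs66Yah (median 10.87) and from 10.55 to 11.13 in Ts66Yah (median 10.86). Of the Ts66Yah embryos 2 were above the highest euploid embryo and replicate 9 was below the lowest, and the log2 difference was 0.01 (SE 0.039, limma, adjusted p = 0.936). Atp5d encodes the δ subunit at the foot of that shaft. Atp5d ranged from 9.26 to 9.67 in EupTs65Dn (median 9.45) and from 9.08 to 9.76 in Ts65Dn (median 9.56). In Ts65Dn 20 of 23 embryos were above the euploid median. The difference of 1.07-fold had an unadjusted p of 0.048 in limma and an adjusted p of 0.857, and so was not called.

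Atp5d in the Ts66Yah colony ranged from 9.13 to 9.97 in EupTs66Yah (median 9.72) and from 9.47 to 10.25 in Ts66Yah (median 9.83). Of the Ts66Yah embryos 19 of 24 were above the euploid median and 7 above the highest euploid embryo. The log2 difference was 0.19 (SE 0.065), or 1.14-fold, with an unadjusted p of 0.00589 and an adjusted p of 0.206 (limma, without the low-spread array). Without the 3 arrays at the other genotype's level it was 0.22 (SE 0.066), with an adjusted p of 0.109, just outside the threshold of 10%. Of the 8 genes with 2 copies, Atp5d had the smallest p in both strains, and its litter means were higher in trisomic embryos in 5 of 6 and 4 of 6 litters. The difference between strains in its change was -0.09 (SE 0.081, adjusted p = 0.855).

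The membrane part was measured through Atp5g1, one of several genes that encode the same mature c subunit of the ring, and through Atp5k and Atp5l, which encode subunits e and g at the interface of enzyme dimers. Atp5g1 ranged from 9.18 to 9.98 in EupTs65Dn (median 9.69) and from 9.09 to 10.07 in Ts65Dn (median 9.62). Its values in the Ts66Yah colony ran from 10.16 to 11.17 in EupTs66Yah (median 10.80) and from 10.37 to 11.66 in Ts66Yah (median 10.89). The groups overlapped, with 1 of 23 and 3 of 24 trisomic embryos above the highest euploid embryo, and the log2 differences were -0.03 (SE 0.072) and 0.08 (SE 0.083). Atp5k ranged from 5.86 to 7.02 in EupTs65Dn (median 6.56) and from 5.98 to 6.98 in Ts65Dn (median 6.67). The Ts66Yah colony gave values from 7.06 to 8.53 in EupTs66Yah (median 7.57) and from 7.02 to 8.29 in Ts66Yah (median 7.53). No trisomic embryo was above the highest euploid embryo in either colony. The SDs of Atp5k, 0.24 to 0.35 over the 4 groups, were wide beside its differences of 0.05 (SE 0.083) and 0.02 (SE 0.099).

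Atp5l ranged from 8.51 to 9.12 in EupTs65Dn (median 8.81) and from 8.30 to 9.23 in Ts65Dn (median 8.88). In the Ts66Yah colony it ranged from 9.34 to 10.22 in EupTs66Yah (median 9.80) and from 9.30 to 10.31 in Ts66Yah (median 9.65). The log2 differences were 0.07 (SE 0.061) in Ts65Dn, where 15 of 23 embryos were above the euploid median, and -0.07 (SE 0.075) in Ts66Yah, where 8 of 24 were. For all 3 membrane genes the trisomic and euploid ranges overlapped in both colonies. The smallest adjusted p among them was 0.724 in limma, for Atp5l in Ts66Yah.

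As a group, 0 of the 8 genes with 2 copies were called in Ts65Dn and 0 in Ts66Yah with or without the low-spread array (limma; 1 of 8, Atp5d, had an unadjusted p under 0.05 each time). In Ts65Dn 6 had a higher and 2 a lower mean, with a median log2 difference of 0.047, beside -0.002 over all probe sets, -0.008 over those at or above the median signal and 0.020 over 69 genes of respiratory chain complexes I to IV. In Ts66Yah without the low-spread array 7 had a higher and 1 a lower mean, with a median of 0.042, beside 0.004 over all probe sets, 0.026 over those at or above the median signal and 0.032 over the complexes. None of the 69 complex I to IV genes was called in either strain, and 3 and 8 of them had an unadjusted p under 0.05. Of all 22206 probe sets, 1285 had an unadjusted p under 0.05 in Ts65Dn and 2689 in Ts66Yah without the low-spread array (2271 with it). With the low-spread array included the median of the 8 genes in Ts66Yah was 0.25, beside 0.043 over all probe sets, 0.12 over those at or above the median signal and 0.16 over the complexes. In simulated data 28% of 1.2-fold changes were called in Ts65Dn, and 41% in Ts66Yah without the low-spread array. Changes of that size can therefore go without a call.

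**Figure D3:**
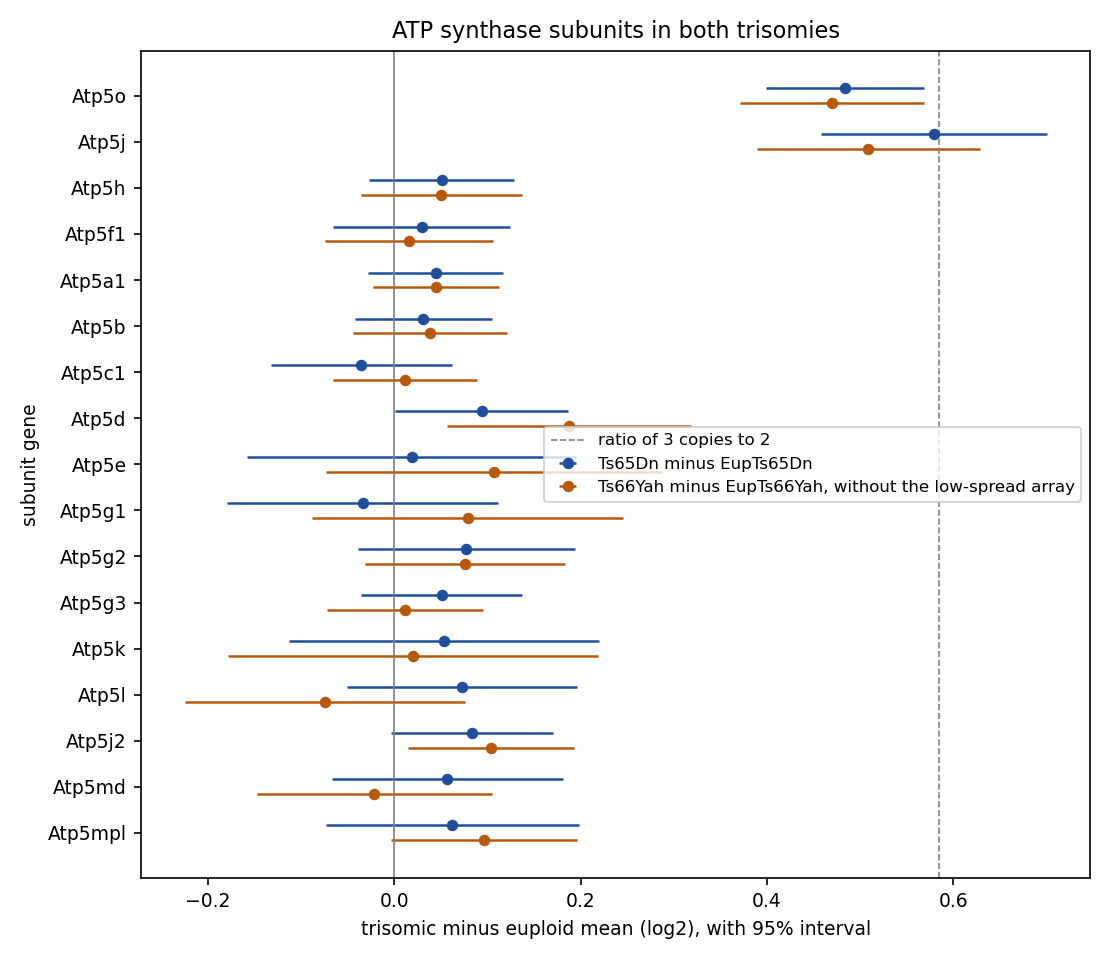
Trisomic minus euploid mean (log2, horizontal axis) with its 95% interval for the 10 subunit genes and 7 further subunit genes, in Ts65Dn (blue, all arrays) and Ts66Yah (orange, without the low-spread array). Solid and dashed vertical lines mark no change and the ratio of 3 copies to 2. Atp5o and Atp5j lie between 0.47 and 0.58, and the other 15 genes between -0.07 and 0.19.

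**Figure D4:**
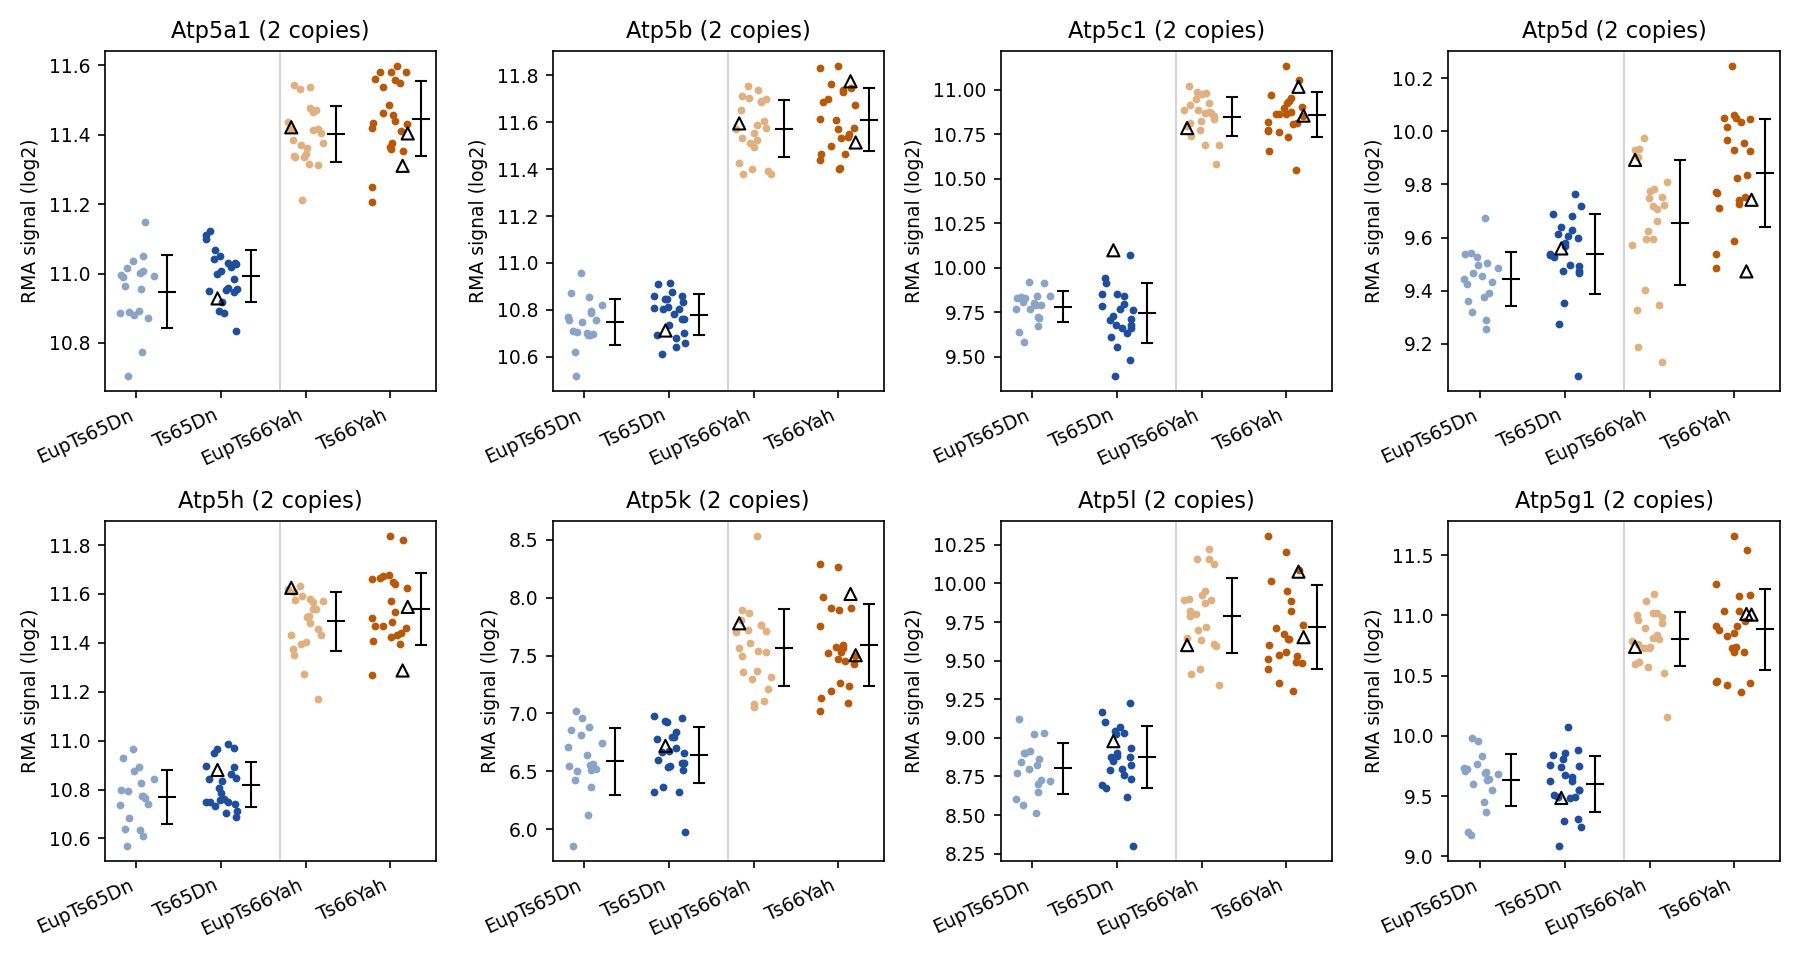
RMA signal (log2, vertical axes) of the 8 subunit genes with 2 copies in each embryo of the 4 groups, without the low-spread array. Dots are embryos, open triangles the 4 arrays at the other genotype's level, and bars the mean ± SD. In each panel the trisomic and euploid embryos of a colony overlap, and the colonies differ in level.

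Within an array, the triplicated genes were also set against the mean of the 8 genes with 2 copies. Relative to that mean and to the euploid embryos of the colony, Atp5o was higher by 0.45 (SE 0.035) in Ts65Dn and by 0.43 (SE 0.049) in Ts66Yah without the low-spread array, or 1.37-fold and 1.34-fold. Atp5j was higher by 0.54 (SE 0.050) and 0.46 (SE 0.060), or 1.46-fold and 1.38-fold. All 23 Ts65Dn embryos were above the euploid median on both measures, as were 24 and 22 of the 24 Ts66Yah embryos. With the low-spread array included the Ts66Yah values were 0.46 and 0.44, close to those without it. These are transcript levels, and protein was not measured.

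The changes of the 2 strains were compared directly in 1 fit of both colonies, with all arrays and without the low-spread array. None of the 10 genes was called for a difference between the strains, against 0.00901% of all probe sets with all arrays and 0.149% without the low-spread array. In either fit 0 of 10 had an unadjusted p under 0.05 (limma), beside 1565 and 1585 of all 22206 probe sets. With all arrays, the change in Ts65Dn minus that in Ts66Yah was -0.21 (95% interval -0.69 to 0.28) for Atp5o and -0.09 (-0.48 to 0.29) for Atp5j. Without the low-spread array it was 0.01 (-0.11 to 0.14) for Atp5o and 0.07 (-0.10 to 0.24) for Atp5j, so that the sign of both turned with that array. For the 8 genes with 2 copies it lay between -0.33 (Atp5h) and 0.01 (Atp5l) with all arrays, and between -0.11 (Atp5g1) and 0.15 (Atp5l) without the low-spread array. These intervals leave room for differences of that size and do not show that the strains are alike.

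Litter and sex did not give a call for any of the 10 genes. Between litters, 0 were called in the Ts65Dn colony (0.378% of probe sets called) and 0 in the Ts66Yah colony with all arrays (0% called) and without the low-spread array (0.0901% called). At an unadjusted p under 0.05 there were 0, 0 and 3, the last being Atp5j, Atp5b and Atp5g1. By labelled sex, 0 were called in the Ts65Dn colony (0.0675% called) and 0 in the Ts66Yah colony with all arrays (0.185%) and without the low-spread array (0.401%). In the Ts65Dn colony Atp5o was 0.09 (SE 0.040) and Atp5g1 0.17 (SE 0.068) higher in males, with adjusted p of 0.796 and 0.740 in limma. Without the low-spread array these differences in the Ts66Yah colony were -0.07 and 0.01. Labels and Y-linked genes disagreed on 17 arrays, which touches this comparison in particular.

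Among the remaining parts of the complex, 7 were measured, and mt-Atp6 and mt-Atp8 were not matched. None of the 7 was called in either strain. In Ts65Dn all 7 had a higher mean, from 0.02 (Atp5e, the ε subunit of the central stalk) to 0.08 (Atp5j2, the membrane subunit f), with a median of 0.057. In Ts66Yah without the low-spread array 6 of 7 had a higher mean, with a median of 0.076 and a range from -0.02 (Atp5md) to 0.11 (Atp5e). Atp5j2 had the smallest p in both strains, at 1.06-fold and 1.07-fold with adjusted p of 0.880 and 0.331 (limma).

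Of 7 assembly factors and inhibitors, 1 was called, Tmem242, which is needed to assemble the c ring. Its gene lies on the proximal Mmu17 part that Ts65Dn carries as an extra copy and Ts66Yah lacks. It ranged from 6.49 to 7.09 in EupTs65Dn (median 6.83) and from 6.74 to 7.65 in Ts65Dn (median 7.32), above every euploid embryo in 18 of 23. Its mean rose from 6.83 ± 0.18 to 7.28 ± 0.24 (SD), or 1.37-fold (limma, adjusted p = 2.40e-05). In the Ts66Yah colony without the low-spread array it ranged from 7.38 to 8.25 in euploid (median 7.63) and from 7.31 to 8.07 in trisomic embryos (median 7.65), at 0.98-fold (adjusted p = 0.879). The change differed between the strains by 0.48 (SE 0.088, adjusted p = 8.58e-04) without the low-spread array, and by 0.38 (SE 0.14, adjusted p = 0.650) with all arrays.

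The other 6, among them Atpif1, which encodes the inhibitor that stops the enzyme from running in reverse, and Atpaf1 and Atpaf2, which help to assemble the head, were not called in either strain. Their folds lay between 0.91 (Atpaf2) and 1.05 in Ts65Dn and between 0.99 and 1.05 in Ts66Yah without the low-spread array. None of 8 carriers and channels that move ATP, ADP, phosphate and creatine phosphate was called. The smallest p values were those of Vdac1 in Ts65Dn (1.04-fold, adjusted p = 0.910) and Ckmt1 in Ts66Yah (1.10-fold, adjusted p = 0.588).

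Of 8 factors that drive transcription of mitochondrial genes, 1 was called, Gabpa, itself on the triplicated Mmu16 part. It ranged from 8.32 to 8.84 in EupTs65Dn (median 8.61) and from 8.32 to 9.35 in Ts65Dn (median 9.14), above every euploid embryo in 22 of 23, with replicate 18 as the exception. The rise was 1.43-fold (limma, adjusted p = 3.56e-07). In the Ts66Yah colony without the low-spread array it ranged from 9.19 to 9.79 (median 9.60) in euploid and from 9.45 to 10.30 (median 9.97) in trisomic embryos, a rise of 1.30-fold (adjusted p = 2.31e-04). There 18 of 24 Ts66Yah embryos were above every euploid embryo and 5 were below the euploid median. The litter differences ran from 0.03 (WT11) to 0.70 (WT18). With all arrays the change of Gabpa in Ts66Yah was not called (limma, adjusted p = 0.339). Genes for the partner subunits of GABP were not called: Gabpb1 was at 0.90-fold and 0.97-fold and Gabpb2 at 0.97-fold and 0.93-fold.

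**Figure D5:**
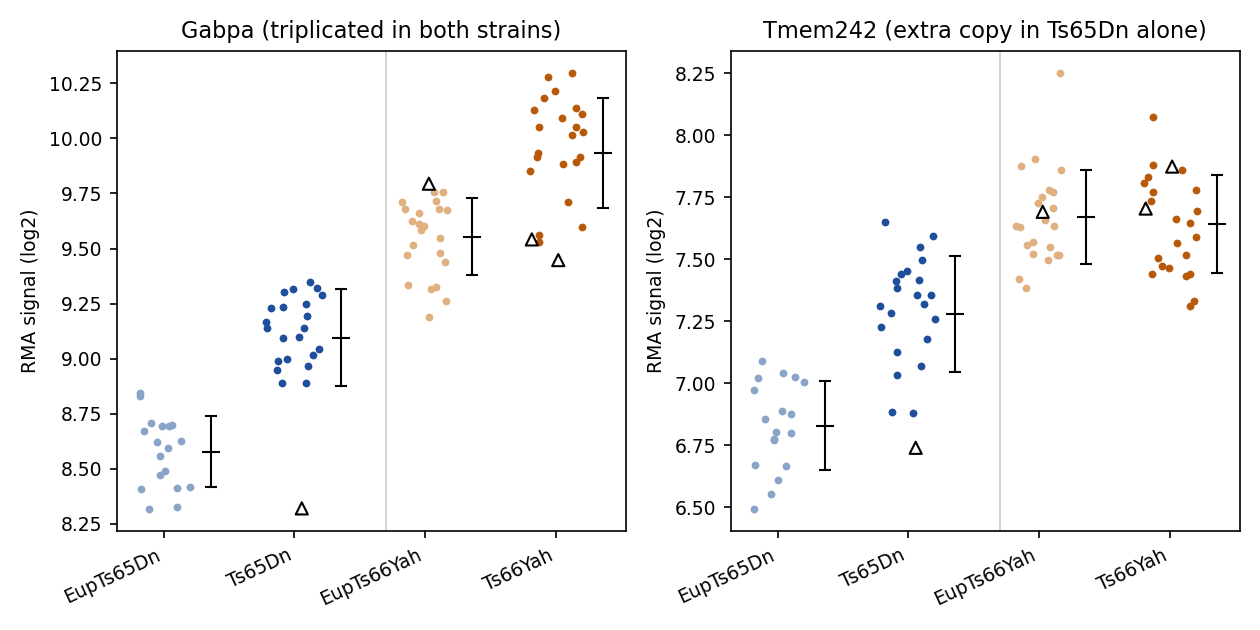
RMA signal (log2, vertical axes) of Gabpa and Tmem242 in each embryo of the 4 groups, without the low-spread array. Dots are embryos, open triangles the 4 arrays at the other genotype's level, and bars the mean ± SD. Gabpa is higher in both trisomic groups (1.43-fold and 1.30-fold), and Tmem242 in Ts65Dn (1.37-fold) and not in Ts66Yah (0.98-fold).

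Of the 3 nearest measured genes on each side of Atp5j and of Atp5o on Mmu16, all but Ncam2 and Fam243 were called higher in Ts65Dn, and in Ts66Yah without the low-spread array. Around Atp5j, Mrpl39, Jam2, Gabpa, App and Cyyr1 were called in Ts65Dn at 1.30-fold (App) to 1.43-fold (Gabpa), and in Ts66Yah without the low-spread array at 1.27-fold (App) to 1.43-fold (Cyyr1). Ncam2, which lies outside the triplicated part, was not called (0.95-fold and 1.03-fold). Around Atp5o, Donson, Cryzl1, Itsn1, Kcne2 and Smim11 were called in both strains, at 1.38-fold (Itsn1) to 1.58-fold (Kcne2) and at 1.35-fold (Itsn1) to 1.48-fold (Kcne2). Fam243 was not called (1.13-fold and 0.98-fold). Of all 121 measured triplicated Mmu16 genes, 55 and 59 were called higher in these settings.

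Variation between embryos of a group was described after each group's mean had been subtracted. Over the 45 pairs among the 10 genes the median correlation was 0.20 in the Ts65Dn colony (41 embryos) and 0.21 in the Ts66Yah colony without the low-spread array (47 embryos), beside 0.016 and 0.049 over all pairs of 9884 named probe sets at or above the median signal. The highest pairs were Atp5k with Atp5g1 (0.71) and Atp5l with Atp5g1 (0.71), and the lowest Atp5a1 with Atp5g1 (-0.44) and Atp5d with Atp5l (-0.46). All values of an embryo share its array, litter and RNA.

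Atp5o and Atp5j varied together in the Ts66Yah colony. Within Ts66Yah Pearson's r was 0.79 and Spearman's rho 0.70 (n = 24, permutation p = 3e-05 and 2.7e-04, adjusted over 4 groups 1.2e-04 and 0.00108), and r was 0.51 without the 2 embryos farthest from the median of Atp5o. Those 2 are the arrays at the other genotype's level, and over the remaining 22 embryos rho was 0.61 (adjusted permutation p = 0.057 for r and 0.013 for rho). In EupTs66Yah without the low-spread array r was 0.57 and rho 0.45 (n = 23, adjusted permutation p = 0.015 and 0.061), and r was 0.30 without the 2 embryos farthest from the median of Atp5o. Without replicate 24 alone they were 0.46 and 0.38 (adjusted permutation p = 0.063 and 0.175). In EupTs65Dn r was 0.23 and rho 0.36 (n = 18), and in Ts65Dn 0.21 and 0.093 (n = 23), with adjusted permutation p from 0.190 to 0.673. Leaving out the 2 farthest embryos there gave r of 0.60 and 0.095. Over the 22 Ts65Dn embryos without replicate 18, r was -0.136 and rho -0.037 (adjusted permutation p = 0.546 and 0.872). Embryos were permuted freely within a group, so these p-values treat littermates as independent.

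The probe sets most like each gene were ranked by the mean over both colonies of these within-group correlations, among 9883 named probe sets. For Atp5o they were App (mean r 0.61), Rcan1 (0.61), Cox8a (0.56), Pcp4 (0.53) and Pigp (0.53), of which Cox8a, a subunit of complex IV, is not on Mmu16. Without the arrays at the other genotype's level Cox8a came first (0.61), followed by Gstm1, Ascc1, Rps29 and Cisd1. For Atp5j they were Micos10, a component of the inner membrane's cristae junctions (0.58), Ost4 (0.55), Rpl31 (0.54), Mrps33 (0.53) and Sod1 (0.52). Without those arrays the first 4 were Micos10, Rpl31, Mrps33 and Ost4, with Diablo in the place of Sod1. Atp5o was at rank 35 for Atp5j, and at rank 902 without the arrays at the other genotype's level.

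The cell makeup of the samples was described with marker lists, because in whole tissue fewer cells of a type and less RNA per cell cannot be told apart. In Ts65Dn none of 9 forebrain, 7 neuron, 7 progenitor and cell cycle, 5 astrocyte, 4 oligodendrocyte, 6 endothelial and pericyte, 5 microglia and 2 erythroid markers was called. Clic6, the 1 called gene of 6 choroid plexus markers, is itself triplicated. In Ts66Yah without the low-spread array Clic6 and Mbp, a myelin gene, were called (Mbp 1.53-fold, adjusted p = 0.0503 in limma). The mean level of the 7 neuron markers was 10.56 ± 0.08 (SD, range 10.42 to 10.71) in EupTs65Dn and 10.47 ± 0.11 (10.33 to 10.68) in Ts65Dn. It was 11.32 ± 0.15 (11.08 to 11.59) in EupTs66Yah without the low-spread array and 11.41 ± 0.11 (11.17 to 11.62) in Ts66Yah. The log2 differences of the 7 neuron markers ran from -0.58 to 0.08 in Ts65Dn, with a median of -0.020 and a first quartile of -0.041. The lower mean there thus came mostly from 1 marker. In Ts66Yah without the low-spread array they ran from 0.02 to 0.31, with a median of 0.074. The mean level of the 5 astrocyte markers was 7.12 ± 0.13 (6.81 to 7.404) and 7.08 ± 0.26 (6.43 to 7.49) in the Ts65Dn colony, and 8.39 ± 0.18 (8.06 to 8.81) and 8.54 ± 0.20 (8.04 to 9.00) in the Ts66Yah colony, euploid first. In Ts66Yah without the low-spread array 7 of 7 neuron, 5 of 5 astrocyte and 5 of 6 endothelial and pericyte markers had a higher mean. In Ts65Dn these counts were 2 of 7, 1 of 5 and 1 of 6. Forebrain markers had 3 of 9 against 4 of 9, and microglia markers 2 of 5 in both. Oligodendrocyte markers had 3 of 4 in both, choroid plexus markers 5 of 6 against 4 of 6, and midbrain and hindbrain markers 4 of 6 against 5 of 6. Progenitor and cell cycle markers had 4 of 7 against 2 of 7, and erythroid markers 1 of 2 against 0 of 2. Of the 11103 probe sets at or above the median signal, 6952 had a higher mean in Ts66Yah and 4994 in Ts65Dn. The part of these markers in the results was not tested.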

How the data were processed

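Per the submitters' processing notes, the deposited values are log2 signals of Clariom S probe sets that the authors made with RMA (background correction, quantile normalization and a summary over the probes of each set). The sources used here give no version or settings of it. The 89 arrays were used as deposited, with no filter, and 19572 of 22206 probe sets carried 1 gene symbol. The series text counts 1 more Ts66Yah array than the 24 labelled so. Gene order, chromosomes and promoter windows came from RefSeq (GRCm38.p6).

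The tests were two-sided and used lmFit and eBayes of limma 3.58.1 (R 4.3.3). P-values were adjusted by Benjamini-Hochberg across the 22206 probe sets, with calls at 10%. The script was checked on simulated data, with the changed probe sets drawn at random from the whole array. Of probe sets changed 1.2-fold, 28% were called in Ts65Dn, 4% in Ts66Yah with all arrays and 41% without the low-spread array. At 1.4-fold these shares were 74%, 46% and 82%. A gene that was not called may thus still have changed by a small fold. Trisomy was tested within each colony, and its difference between colonies, litter and sex in fits of their own. Correlations used 100000 permutations in Python 3.11.15, and figures matplotlib 3.10.9. An array counted as low-spread when its SD was under 0.75 of its group's median. Named were all 10 genes, called genes of the other lists or else the smallest p, 3 neighbours on each side, and the 5 most alike probe sets. Atp5f1, Atp5e, Atp5md, Atpif1, Atpaf1, Atpaf2, Gabpb1, Gabpb2 and the called markers were named outside this rule, after their values were seen. The members and lists were chosen with earlier results of these data known. The alternatives were litter as a replicate block, sex as a covariate, other tests, thresholds, filters and normalizations, array weights, and left-out litters or arrays. Litters hold unequal numbers of both genotypes and pair no embryos one to one. The correlation of litter deviations between genotypes ran from -0.19 to 0.36 in the Ts65Dn colony and from -0.04 to 0.89 in the Ts66Yah colony with all arrays.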

Additional observations from a re-analysis of the deposited data

Results flagged for a closer look

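Tmem242, which encodes an assembly factor of the c ring, differed between the strains in its response to trisomy by 0.48 on the log2 scale (0.479, SE 0.088, limma, adjusted p = 8.58e-04, without the low-spread array). This was a test of the difference itself. With all arrays the difference was 0.38 and was not called (adjusted p = 0.650). The extra chromosome of Ts65Dn carries the proximal Mmu17 part on which Tmem242 lies, and that of Ts66Yah does not.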

How the results depend on the processing

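In Ts65Dn the count of called subunits was 2 in all alternatives run except 1. With all 4 groups in 1 fit it was 1, Atp5j, since that fit takes its spread also from the low-spread array (Atp5o adjusted p = 0.835). In Ts66Yah the count of 0 with all arrays became 2 under the marginal criterion of the series, array weights, all 4 groups in 1 fit, and without the low-spread array, the last also with array spread as a covariate, with the litter as a replicate block, or without the arrays at the other genotype's level. It became 1, Atp5j, with filters at the lower quartile or the median of mean signal and without the arrays at the other genotype's level alone. Leaving out each litter gave 0 to 2 calls, and 2 only without WT18, the litter of the low-spread array. With that array left out, each further omission of a litter, an alternative chosen after seeing the data, left 2 calls. With the litter as a replicate block and all arrays the counts were 2 in Ts65Dn and 0 in Ts66Yah. Neither the strain difference, the litters nor sex gave a call of a subunit under the alternatives run. The mean of Atp5o stayed higher in trisomic embryos under all 19 and 29 alternatives (0.46 to 0.52 and 0.43 to 0.80), as did that of Atp5j (0.52 to 0.61 and 0.47 to 0.74). The 8 other genes were not called in any, with adjusted p of at least 0.109.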

Other observations

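The membrane subunit genes Atp5k, Atp5l and Atp5g1 had closer partners between embryos of a group than Atp5o and Atp5j did. These partners were looked up after the values had been seen. For Atp5k the most alike named probe sets were Snrpd2 (mean r over both colonies 0.79), Ndufa13 (0.77) and Cox4i1 (0.77). For Atp5l they were Rpl39 (0.78), Cox7a2 (0.76) and Ndufa13 (0.74), and for Atp5g1 Rps27rt (0.78), Get3 (0.77) and Cenpv (0.76). Over 41 and 47 embryos these values are descriptions, since all values of an embryo share an array.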
